A study of Mus musculus with 28 samples.

Results

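Igsf5 and Tmprss11b were followed through 28 bulk RNA libraries of the murine lung carcinoma line 3LL. They are 2 of the 43143 rows of the deposited table, taken by symbol, and were chosen by the measured difference between KEAP1-NRF2-DKO and KEAP1-KO tumors, which was larger for no other tested row. That contrast is therefore given for both genes as a description with no test, and the questions asked here are how the 2 genes stood in the other groups and whether DKO cells in culture already carried them.

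Each of the 7 groups held 4 libraries. Cultured 3LL cells were wild type (WT), deleted for Keap1 (KEAP1-KO), or deleted for Keap1 and then for Nrf2 (KEAP1-NRF2-DKO, here DKO, made by editing the KEAP1-KO cells, so that both carry the Keap1 lesion). Tumors grew under the skin of albino C57BL/6 male mice aged 6 weeks at injection and were harvested on day 10. In Experiment A, WT cells were placed in the left and KEAP1-KO cells in the right flank, and in Experiment B, KEAP1-KO cells in the left and DKO cells in the right flank. Within an experiment both kinds of cells were placed in the same mice, but the sample titles name no mouse. Tumors were therefore fitted as independent samples, although those of an experiment shared hosts. The edited lines were single-colony clones, so clone and genotype cannot be told apart, and within either experiment genotype cannot be told apart from flank. No label says that replicates of the cells were separate cultures, so p-values measure the spread between these samples, which may be technical.

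NRF2 is a transcription factor that turns on antioxidant and detoxifying genes, and KEAP1 is the adaptor that marks it for degradation, so cells without KEAP1 accumulate NRF2. Igsf5, also called JAM4, encodes a membrane protein of the immunoglobulin superfamily that sits at the junctions of epithelial cells in kidney and gut, where the tail of the protein binds the PDZ domains of scaffold proteins such as MAGI1. Tmprss11b encodes a type II transmembrane serine protease, anchored near its amino end with a trypsin-like domain outside the cell, of a family found in squamous linings such as mouth, oesophagus and airway. In squamous lung cancer cells this protease has been linked to lactate export through the transporter MCT4 and its chaperone basigin.

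Short stretches of sequence are shown to place what was counted, each 5′ to 3′ on the coding strand. Igsf5 (ENSMUSG00000000159) lies on the forward strand at chr16:96361668-96422121 and Tmprss11b (ENSMUSG00000035861) on the reverse strand at chr5:86657631-86676362 (GENCODE vM21, mouse build GRCm38). The Igsf5 stretch, chr16:96403302-96403361, is the end of the coding sequence, which encodes the PDZ-binding tail, with the stop codon in capitals. It belongs to a transcript with 8 exons and 813 coding bases.
Igsf5 coding end: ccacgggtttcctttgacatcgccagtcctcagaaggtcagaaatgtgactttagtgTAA
The first Tmprss11b stretch, chr5:86660567-86660626, holds the codon of the catalytic serine of the protease in capitals, within a transcript of 10 exons and 1251 coding bases.
Tmprss11b active site: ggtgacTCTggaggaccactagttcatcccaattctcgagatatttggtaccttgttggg
The second is the stretch before the annotated start of Tmprss11b, chr5:86676363-86676548 (RefSeq promoter, GRCm38.p6), with the one match found among 4 motifs in capitals.
Tmprss11b upstream: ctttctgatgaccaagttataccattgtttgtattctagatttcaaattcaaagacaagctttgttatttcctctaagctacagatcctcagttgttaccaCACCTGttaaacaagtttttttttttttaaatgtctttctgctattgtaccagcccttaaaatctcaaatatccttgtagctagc

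The values are log2(normalized count + 4), so that a row with no reads stands at 2.0, and fold changes of rarely read genes are understated on this scale. Dividing the normalized counts by the smallest step of each library returned whole reads, between 4222370 and 7524290 per library in the rows of the table. Some rows stand for a gene and others for 1 transcript, which need not follow the gene as a whole. The labels were checked on Keap1, Nfe2l2 (the gene of NRF2) and an NRF2 target. Mean Keap1 was 9.45 in WT cells against 7.59 in KEAP1-KO and 7.35 in DKO cells, and 8.88 in WT tumors against 7.37 to 7.46 in the edited tumors. Nqo1, a reductase that is a standard readout of NRF2, was at 12.45 in KEAP1-KO cells but 6.77 in DKO cells, and at 12.23 in KEAP1-KO tumors but 5.93 in DKO tumors of Experiment B. Nfe2l2, listed by 1 transcript, was not lower in DKO, at 5.06 against 4.84 in KEAP1-KO cells (limma adjusted p = 0.65) and at 5.59 in both tumor groups of Experiment B, so that the loss of NRF2 shows in its target and not in this row.

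In culture, Igsf5 was almost unread in WT cells, was read in KEAP1-KO cells and was highest in DKO cells. The 4 WT cell libraries held 0, 2, 0 and 1 reads of Igsf5, which are log2 values of 2.0, 2.62, 2.0 and 2.34. The KEAP1-KO cell libraries held 22, 21, 19 and 22 reads (4.61, 4.48, 4.45 and 4.57), and the DKO cell libraries 65, 71, 63 and 86 reads (6.08, 6.30, 6.13 and 6.27). No library of one genotype reached the range of the next, and the SD within a group was at most 0.30.

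By limma over all cultured libraries, Igsf5 was higher in DKO than in KEAP1-KO cells by 1.67 on the log2 scale (SE 0.18, adjusted p = 6.75e-05), in 4 of 4 libraries. The mean normalized count was 69.4 ± 5.46 (SD, n = 4) against 19.1 ± 1.17, a ratio of 3.63. KEAP1-KO cells exceeded WT cells by 2.29 (SE 0.18, limma adjusted p = 2.62e-06) and DKO cells exceeded WT cells by 3.95 (SE 0.18, limma adjusted p = 2.18e-08). Igsf5 thus stood higher with each successive deletion in culture, although WT cells gave 3 reads in all, too few for a fold change.

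Tmprss11b followed the same order in culture. The WT cell libraries held 2, 9, 1 and 3 reads (2.65, 3.78, 2.35 and 2.85), the KEAP1-KO cell libraries 13, 12, 22 and 10 reads (4.01, 3.86, 4.63 and 3.70), and the DKO cell libraries 65, 77, 61 and 73 reads (6.08, 6.41, 6.09 and 6.05). All 4 DKO values lay above every other cultured library, whereas the WT and KEAP1-KO ranges overlapped through WT replicate 2.

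Tmprss11b was higher in DKO than in KEAP1-KO cells by 2.11 (SE 0.30, limma adjusted p = 0.000582), and its mean normalized count was 67.7 ± 8.86 (SD, n = 4) against 13.1 ± 5.28, a ratio of 5.18. DKO cells exceeded WT cells by 3.25 (SE 0.30, limma adjusted p = 8.55e-06). KEAP1-KO cells exceeded WT cells by 1.14 (SE 0.30, limma adjusted p = 0.0217), but that call was lost without WT replicate 1 (adjusted p = 0.0565), WT replicate 3 (0.0604) or KEAP1-KO replicate 3 (0.0679), and by an exact two-sided permutation test (p = 0.0571).

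Both members were therefore called higher in DKO than in KEAP1-KO cells, where 3.98% of the 29744 rows tested were called higher. An exact two-sided permutation test of each gene gave p = 0.0286, the smallest that 4 against 4 libraries allow. Among all rows ordered from the largest rise in that comparison, Tmprss11b ranked 68 and Igsf5 183. Against WT cells, where 8.46% of rows were called higher in DKO cells, Igsf5 ranked 8 and Tmprss11b 25. In KEAP1-KO against WT cells 8.13% of rows were called higher and both genes were among them.

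**Figure D1:**
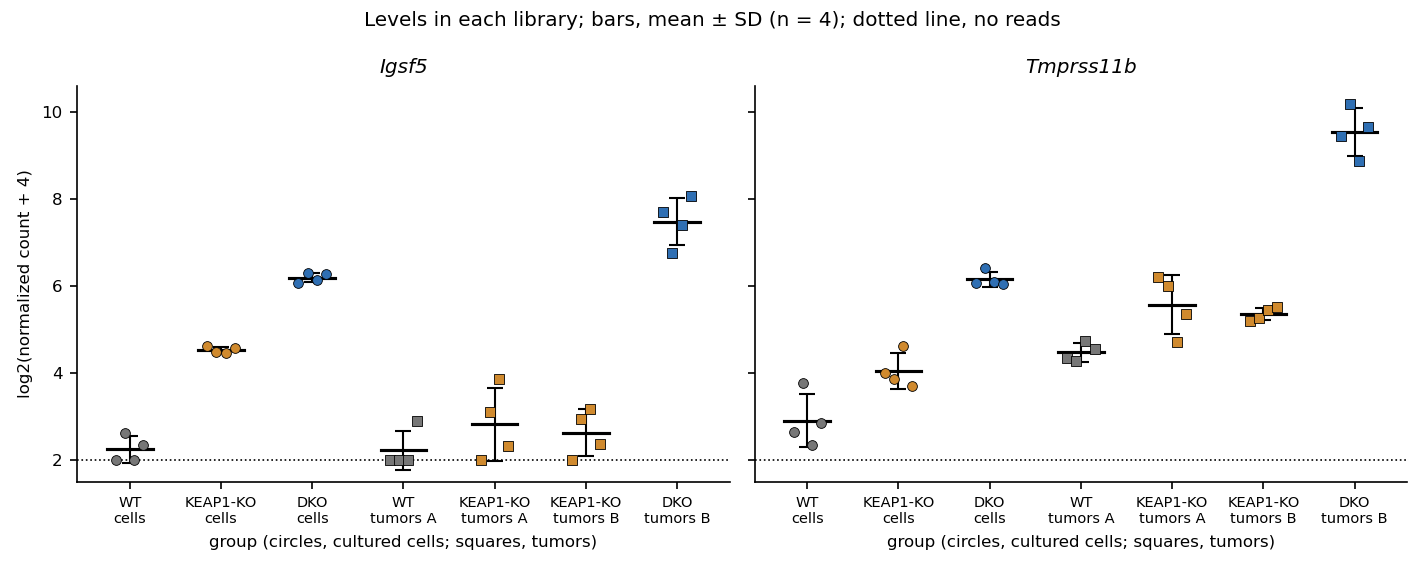
Log2(normalized count + 4) of Igsf5 (left) and Tmprss11b (right) in every library of the 7 groups (circles, cultured cells; squares, tumors of Experiments A and B), with bars for the mean ± SD of 4 libraries and a dotted line at 2, where no read was counted. DKO tumors sit at 6.77 to 8.06 and 8.87 to 10.19, above all other libraries of the same gene.

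In Experiment B, both genes stood far higher in DKO than in KEAP1-KO tumors. Igsf5 had 185, 102, 203 and 309 reads in the 4 DKO tumors (7.69, 6.77, 7.40 and 8.06), against 0, 4, 5 and 1 reads in the 4 KEAP1-KO tumors of that experiment (2.0, 2.95, 3.18 and 2.36). Tmprss11b had 639, 1131, 572 and 944 reads in the DKO tumors (9.46, 10.19, 8.87 and 9.66), against 33, 37, 39 and 37 reads in the KEAP1-KO tumors (5.21, 5.26, 5.45 and 5.52). The ranges of the 2 groups did not overlap for either gene, which is no separate result, since this contrast chose both genes. Reads of both were present in all 4 DKO tumors rather than in a single one.

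The difference of the mean log2 values between DKO and KEAP1-KO tumors was 4.86 for Igsf5 and 4.19 for Tmprss11b, which placed them at ranks 1 and 2 of the 34215 rows tested in tumors. The mean normalized counts were 184 against 2.48 for Igsf5 and 783 against 37.2 for Tmprss11b, the latter a ratio of 21.1. In this contrast, which chose both genes, 4.22% of rows were called higher. Just outside the choice, at rank 3, was Ifit1, an interferon-induced antiviral gene, with a difference of 4.09, followed by Zdhhc14, a palmitoyltransferase gene, with 3.91.

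Bulk RNA cannot tell fewer cells of a type from less RNA per cell, which applies to every tumor value. In Experiment A, Igsf5 was nearly unread in both genotypes. The WT tumors held 0, 0, 0 and 4 reads of Igsf5 (2.0, 2.0, 2.0 and 2.89) and the KEAP1-KO tumors 0, 4, 11 and 1 reads (2.0, 3.11, 3.87 and 2.31). The ranges overlapped and the mean log2 values differed by 0.60. This difference is given with no test, since Igsf5 passed the filter on low values only through the DKO tumors, and a difference between the genotypes was not detectable at this depth.

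Tmprss11b was read in every tumor of Experiment A. WT tumors held 18, 16, 25 and 23 reads (4.33, 4.27, 4.75 and 4.56) and KEAP1-KO tumors 63, 52, 23 and 38 reads (6.21, 6.0, 4.71 and 5.36), so that only KEAP1-KO replicate 3 fell within the WT range. KEAP1-KO tumors were higher by 1.09 (SE 0.29, limma adjusted p = 0.0207), in a comparison where 5.61% of rows were called higher. The adjusted p rose above 0.05 without KEAP1-KO replicate 1 (0.0718) or 2 (0.0706), without WT replicate 1 (0.055) or 2 (0.0596) and with replicate number as a block (0.0602), lay between 0.0166 and 0.0602 over the 8 other settings that kept every library, and the exact two-sided permutation test gave p = 0.0571.

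The KEAP1-KO tumors of the 2 experiments, which came from the same genotype in opposite flanks, overlapped for both genes. Mean Igsf5 was 2.82 in Experiment A and 2.62 in Experiment B, and mean Tmprss11b was 5.57 and 5.36. The difference of 0.20 for Igsf5 was within the SD of both groups, 0.84 and 0.54. That of 0.21 for Tmprss11b was within the SD of the Experiment A tumors, 0.68, but above that of the Experiment B tumors, 0.15.

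The difference of Igsf5 between KEAP1-KO and WT was 0.60 in tumors of Experiment A and 2.29 in cells. With a pseudocount of 1 the values were 1.22 and 3.65, and the tumor value was 0.25 to 0.88 with single libraries left out. These are set side by side with no test of their difference, since the tumor values rest on 4 reads in all WT and 16 in all KEAP1-KO tumors. For Tmprss11b, whose difference was 1.09 in tumors and 1.14 in cells, limma over all 28 libraries gave -0.05 for the first less the second (SE 0.43, adjusted p = 0.979) in a contrast added after the data were seen. In that contrast 3.88% of rows were called lower, and the share of calls that were higher went from 27.9% to 54.8% after median centring. The Tmprss11b value turned sign under quantile normalization (0.13), median centring (0.12) and without 1 of 6 libraries: KEAP1-KO tumor replicate 3 (0.24) or 4 (0.026), WT tumor replicate 3 (0.045), KEAP1-KO cell replicate 3 (0.15), or WT cell replicate 1 (0.040) or 3 (0.14).

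**Figure D2:**
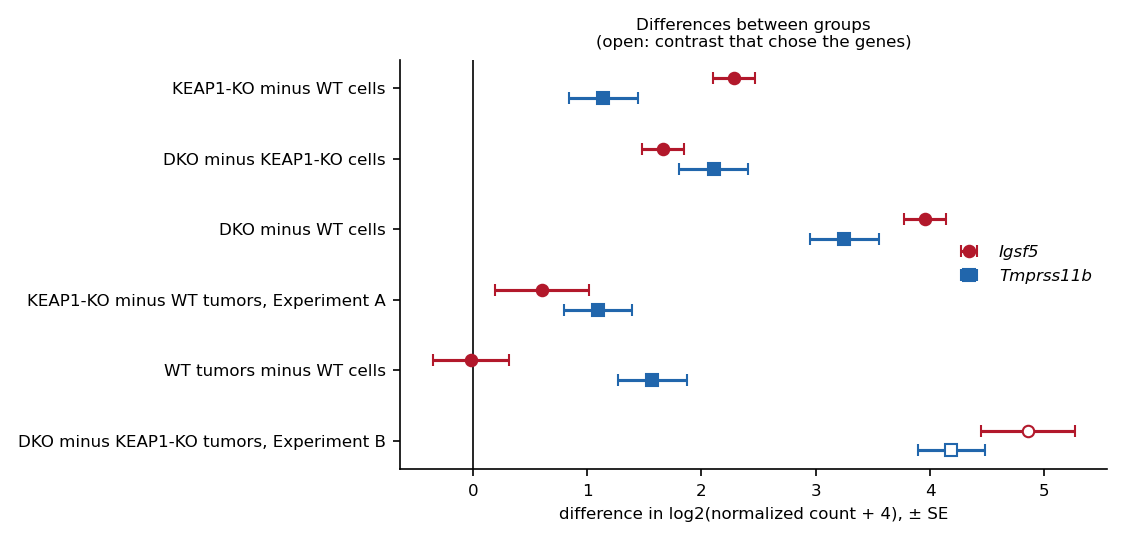
Difference in log2(normalized count + 4) ± SE of Igsf5 (circles) and Tmprss11b (squares) in each comparison, from limma. Open symbols mark DKO minus KEAP1-KO tumors, 4.86 and 4.19, the contrast that chose both genes and has no test, and Igsf5 had too few reads for a test between WT tumors and cells or in Experiment A; DKO minus KEAP1-KO cells, 1.67 and 2.11, was not used in the choice.

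WT tumors and WT cells were compared next. Igsf5 had 4 reads in all WT tumors and 3 in all WT cells, too few for a comparison. Tmprss11b was higher in WT tumors by 1.57 (SE 0.30, limma adjusted p = 0.000145), with all 4 tumors above all 4 cell libraries. In that comparison 24.7% of rows were called higher, and the median of all rows was itself 0.20 higher in tumors. After each library was centred on its median, the share of calls that were higher went from 63.6% to 35.3%, and the difference of Tmprss11b was 1.18 (limma adjusted p = 0.00353).

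In the edited genotypes, tumors and cells are set side by side with no test. Igsf5 averaged 4.53 in KEAP1-KO cells but 2.82 and 2.62 in KEAP1-KO tumors, whereas in DKO it averaged 6.19 in cells and 7.48 in tumors. Igsf5 was thus lower in tumors than in culture in KEAP1-KO and higher in DKO, with no overlap in either genotype. Tmprss11b was higher in tumors than in cells in both, at 5.57 and 5.36 against 4.05 in KEAP1-KO and at 9.54 against 6.16 in DKO.

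The difference between DKO and KEAP1-KO was larger in tumors than in culture for both genes, by 3.19 for Igsf5 and 2.08 for Tmprss11b. These values rest on the contrast that chose the genes and were not tested. For Igsf5 the KEAP1-KO tumors lay below the KEAP1-KO cells and the DKO tumors above the DKO cells. For Tmprss11b both tumor groups lay above their cells.

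Ordered by mean, Igsf5 was highest in DKO tumors (7.48), then in DKO cells (6.19) and KEAP1-KO cells (4.53), and these 3 groups did not overlap with each other or with any other. The 4 lowest groups overlapped with one another, and these were the KEAP1-KO tumors (2.82 in Experiment A and 2.62 in Experiment B), WT cells (2.24) and WT tumors (2.22). Tmprss11b was highest in DKO tumors (9.54), which stood apart from all other groups. DKO cells (6.16) came next and overlapped with the KEAP1-KO tumors of Experiment A (5.57), which in turn overlapped with those of Experiment B (5.36). WT tumors (4.48) followed and overlapped with KEAP1-KO cells (4.05), which overlapped with WT cells (2.91).

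The other rows higher in DKO tumors were looked up in culture in the same way. Of the 1445 rows called higher in DKO than in KEAP1-KO tumors, 988 could be tested in culture and 300 of those, or 30.4%, were called higher in DKO cells, against 3.98% of all rows tested there. Of the 20 rows with the largest rises among them, 13 could be tested in culture and 7 were called higher there. Both members are in each of these counts, but their place in the tumor contrast, which chose them, is no test of them. Another of the 7 was Zdhhc14, with a mean of 7.22 in DKO cells against 2.0 in KEAP1-KO cells, while Ifit1 was at 2.0 in DKO and 2.07 in KEAP1-KO cells. Among the 988 rows, 25 had a larger difference in culture than Igsf5 and 11 a larger one than Tmprss11b.

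**Figure D3:**
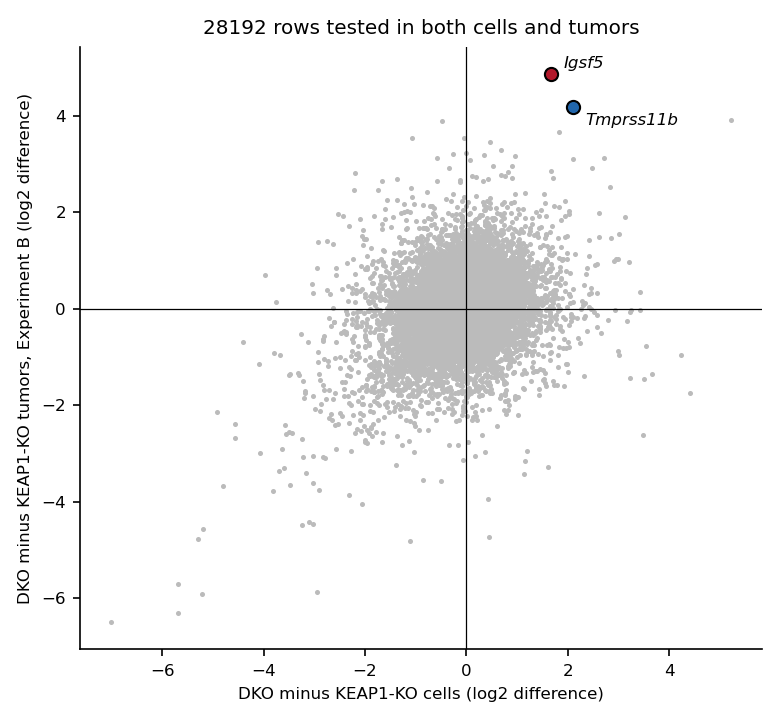
Difference DKO minus KEAP1-KO in cultured cells (horizontal axis) and in tumors of Experiment B (vertical axis), in log2 units, for the 28192 rows tested in both (grey points). Igsf5 and Tmprss11b lie at the top, to the right of 0, with differences in culture of 1.67 and 2.11.

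Markers of host cells also differed between the same tumors. The summed normalized counts of 12 leukocyte marker rows were 5133 to 6849 in DKO and 3948 to 4588 in the opposite KEAP1-KO tumors, and those of 6 fibroblast marker rows were 6205 to 8848 and 1912 to 2347. WT tumors, where Igsf5 had 0 to 4 reads and Tmprss11b 16 to 25, reached 6770 to 7929 for leukocytes and 4058 to 9570 for fibroblasts. The KEAP1-KO tumors of Experiment A summed to 2597 to 3199 and 1496 to 2820. The leukocyte sums of KEAP1-KO tumors thus did not overlap between the experiments, which limits comparisons of WT with DKO tumors. Between DKO and KEAP1-KO tumors limma called 8 of the 12 leukocyte rows and 2 of the 6 fibroblast rows higher and none lower, where 4.22% of all rows were called higher and 4.64% lower. The 2 fibroblast rows were Dcn, which averaged 12.41 in DKO and 9.55 in KEAP1-KO tumors, and Lum, at 6.92 and 4.69, both proteoglycans of connective tissue. Dcn was also higher in DKO than in KEAP1-KO cells in culture, by 1.67 (limma adjusted p = 0.000727).

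The 4 endothelial rows summed to 748 to 880 in DKO and 802 to 1126 in KEAP1-KO tumors. The 5 skeletal muscle rows summed to 293, 144, 197 and 21.3 in the 4 DKO tumors against a range of 11.2 to 44.1 in the KEAP1-KO group of that experiment. DKO tumor replicate 4, with 21.3, had 309 reads of Igsf5 and 944 of Tmprss11b. In the 12 cultured libraries the leukocyte rows summed to 11.4 to 121, with 3 of the 12 rows (Tyrobp, Adgre1 and S100a9) at 0 in all of them and Cd68 the most read, at a mean of 5.57 in DKO and 6.83 in KEAP1-KO cells. The fibroblast rows summed to 148 to 301 in DKO and 165 to 228 in KEAP1-KO cells, and the endothelial rows to 48.2 to 67.4 and 26.0 to 44.3. The part of host RNA and of these markers in the differences of Igsf5 and Tmprss11b was not tested.

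**Figure D4:**
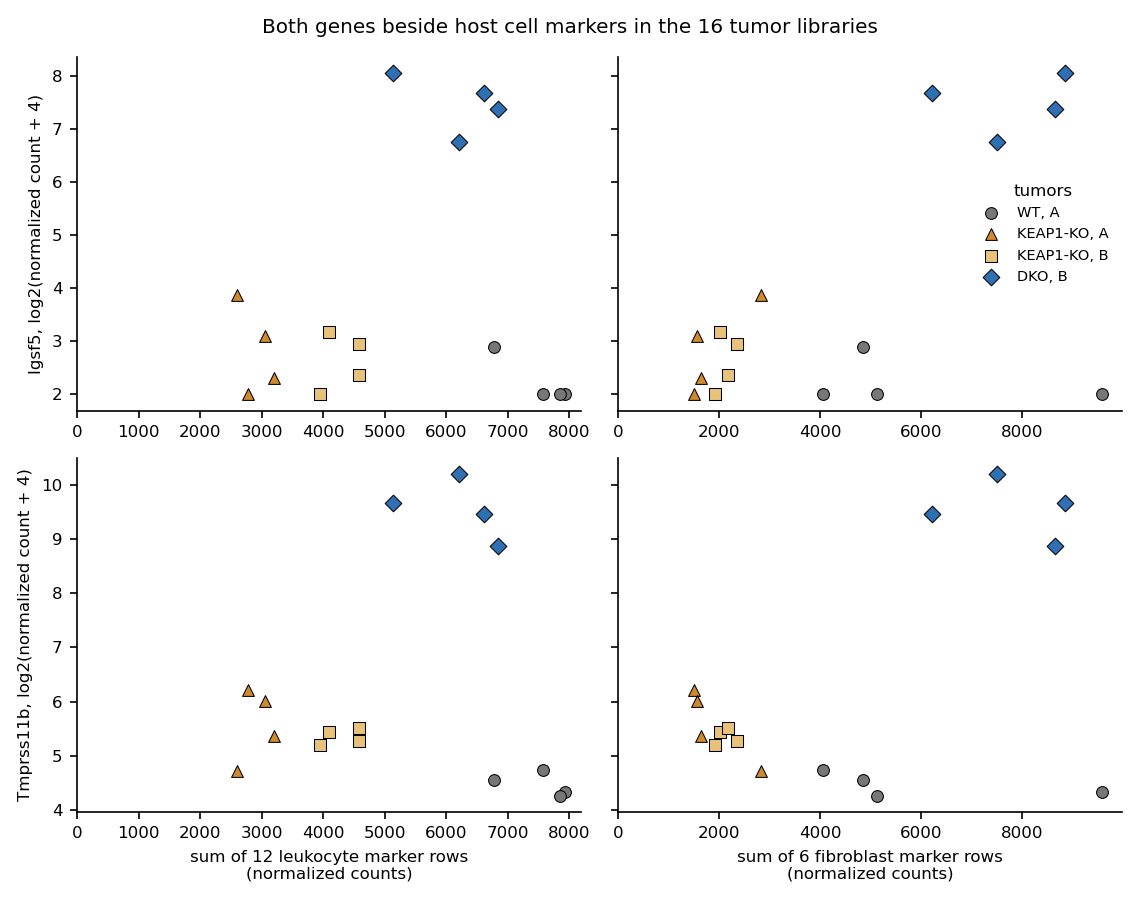
Log2(normalized count + 4) of Igsf5 (top) and Tmprss11b (bottom) in the 16 tumor libraries against the summed normalized counts of 12 leukocyte (left) and 6 fibroblast (right) marker rows. The highest sums are 7929 and 9570 in WT tumors of Experiment A, and 6849 and 8848 in DKO tumors of Experiment B. Leukocyte sums of KEAP1-KO tumors are 2597 to 3199 in Experiment A and 3948 to 4588 in Experiment B.

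Igsf5 and Tmprss11b are known from epithelia, but no listed marker of epithelia was called higher with them in DKO than in KEAP1-KO cells. Of 16 squamous marker rows, 13 were tested in culture and limma called none between DKO and KEAP1-KO cells (3 at an unadjusted p under 0.05), with a median difference of 0.17 against -0.03 over all rows. Of 10 rows of simple epithelium, 6 were tested, none was called higher and 3 were called lower. These were Krt18, which fell by 1.39 (limma adjusted p = 5.35e-05), Klf5 (fell by 0.51, 1.81e-05) and Krt8 (fell by 0.36, 0.000317), 2 keratins of simple epithelium and a transcription factor of epithelial progenitors. The median difference of the 6 tested rows was -0.77, where 4.85% of all rows were called lower.

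Of the 8 mesenchymal marker rows, 7 were tested in DKO against KEAP1-KO cells. Snai2, a repressor of epithelial genes, rose by 3.02 (limma adjusted p = 8.48e-12) and Twist1 by 0.52 (0.000749), while Snai1 fell by 0.51 (0.00753). The median of the list was 0.21 against -0.03 over all rows. In the tumors, described without a test, Snai2 averaged 7.30 in DKO against 5.76 in KEAP1-KO and Krt18 4.89 against 5.98, but the cadherin gene Cdh1 averaged 4.44 against 3.04. Cdh1 averaged 3.91 in WT tumors and only 2.18 to 2.40 in the groups of cells. In Experiment A, Sprr1b and Sprr1a, precursors of the cornified envelope of squamous cells, exceeded their WT level in KEAP1-KO tumors by 3.32 (limma adjusted p = 4.76e-05) and 3.08 (1.59e-05), among 3 of 15 squamous rows called higher and 1 lower (5.61% and 7.49% of all rows), whereas Tgm1, a crosslinking enzyme of that envelope, fell by 1.27 (0.0241). Sprr1a averaged 6.77 in those KEAP1-KO tumors, 5.19 in the KEAP1-KO and 6.29 in the DKO tumors of Experiment B, and the squamous list had a median difference of -0.25 between the latter, against 0 over all rows. The name epithelial is used here for where the 2 genes are known from.

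Other genes of cell junctions went both ways. Of 43 listed junction genes, 33 had a row and 22 were tested in culture. Of these, 3 were called higher and 3 lower in DKO than in KEAP1-KO cells, against 3.98% and 4.85% of all rows. The median difference of the list was -0.03, as over all rows. Ocln, the tight junction protein occludin, fell by 1.46 (SE 0.08, limma adjusted p = 1.48e-07), and Esam, an adhesion molecule of the same immunoglobulin type as Igsf5, fell by 1.37 (SE 0.33, 0.0196). Cldn12, a claudin, rose by 0.52 (SE 0.07, 0.000234). In tumors of Experiment B mean Ocln was 6.28 in DKO and 7.95 in KEAP1-KO, the opposite order to Igsf5. The rows of Ocln, Esam, Cgnl1, Tjp1 and Pard6a each stand for 1 transcript, and that of Cldn12 for the gene.

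Against WT cells, DKO cells had 7 of the 22 junction rows higher and 2 lower, with a median of 0.32 against -0.01 over all rows, of which 9.2% were called lower. The largest were Cgnl1, which encodes the junction adaptor paracingulin (2.13, limma adjusted p = 0.000164), Ocln (fell by 1.33, 2.91e-07) and the polarity gene Pard6a (1.15, 0.0126). KEAP1-KO cells had 4 higher and 1 lower than WT cells (median 0.14 against 0.02, with 7.33% of all rows called lower), led by Cgnl1 (2.82, limma adjusted p = 1.84e-05), Esam (1.94, 0.00123) and the scaffold gene Tjp1 (0.91, 0.0157). Igsf5 and Cgnl1 were both higher in KEAP1-KO than in WT cells, but Cgnl1 averaged 6.29 in KEAP1-KO and 5.61 in DKO cells, where Igsf5 was higher still.

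In tumors of Experiment A, 3 of 27 junction rows were higher and 3 lower in KEAP1-KO than in WT, with a median of -0.08 against -0.03 and 7.49% of all rows called lower. Cgnl1 rose by 2.72 (limma adjusted p = 1.25e-05), while Jaml, an adhesion molecule of leukocytes, fell by 1.88 (0.000168) and Nectin4, a junction protein gene, fell by 1.45 (0.00906). In Experiment B, 1 of the 27 was called higher and 3 lower in DKO tumors, where 4.64% of all rows were called lower. Of the genes whose products bind the Igsf5 tail, the listed Magi1 transcript averaged 2.0 in DKO cells and 2.52 in DKO tumors, which does not give the level of the gene, and Lnx1, a ubiquitin ligase gene, averaged 3.39 and 3.89.

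Of 20 other type II transmembrane serine proteases, 6 had a row and 2 were tested in culture, and limma called neither between DKO and KEAP1-KO cells (1 at an unadjusted p under 0.05; median -0.53 against -0.03 over all rows). Tmprss11f, the neighbour of Tmprss11b and of the same subfamily, listed by 1 transcript, averaged 2.33, 3.49 and 2.98 in WT, KEAP1-KO and DKO cells. No test of it in culture is read, since it passed the filter on low values only through the KEAP1-KO cells. Tmprss11f averaged 4.10 in DKO and 2.75 in KEAP1-KO tumors of Experiment B. St14, which encodes matriptase, averaged 3.81 to 4.36 in cells and 4.48 to 4.8 in tumors.

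Among 8 partners and inhibitors of the protease, 7 had a row and 5 were tested in culture. Slc16a3, which encodes MCT4 and like Bsg is listed by 1 transcript, was lower in DKO than in KEAP1-KO cells by 0.47 on the log2 scale, a difference of -0.47 (SE 0.11, limma adjusted p = 0.0162), and higher in KEAP1-KO than in WT cells by 0.56 (SE 0.11, 0.00298). Bsg, which encodes basigin, averaged 11.92, 12.13 and 11.99 in WT, KEAP1-KO and DKO cells and 11.25 to 11.33 in tumors. F2rl1, the receptor PAR2 that serine proteases cleave, was higher in KEAP1-KO (1.26, limma adjusted p = 0.00176) and in DKO cells (1.35, 0.000927) than in WT cells. The list's median was -0.14 in DKO against KEAP1-KO cells, with 0 called higher and 1 lower (2 at an unadjusted p under 0.05). Of all rows, 3.98% were called higher and 4.85% lower there.

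In tumors, Slc16a1, which encodes the lactate transporter MCT1, differed by -0.61 between KEAP1-KO and WT tumors of Experiment A (SE 0.08, limma adjusted p = 7.46e-05) and was lower in KEAP1-KO. It was the only one of 7 partner rows called there, with a list median of -0.13, where 7.49% of all rows were called lower. Slc16a1 averaged 11.50 in DKO and 11.12 in KEAP1-KO tumors of Experiment B. Slc16a3 averaged 7.37 and 7.89 in the same groups. Spint1, which encodes an inhibitor of such proteases, averaged 4.73 in DKO and 3.65 in KEAP1-KO tumors and 4.37 in WT tumors, but only 2.08 to 2.22 in cells.

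The nearest genes with a row on each chromosome were compared between DKO and KEAP1-KO cells, as far as they could be tested. They lay 2 to 16 annotated genes away from Igsf5 and 1 to 60 from Tmprss11b. Of the 10 nearest listed genes of Igsf5, 5 on each side, 4 were tested in culture, and limma called none between DKO and KEAP1-KO cells (0 at an unadjusted p under 0.05), with differences from -0.22 to 0.11. Gm32358, a predicted gene that overlaps Igsf5 in the annotation, so that the assignment of reads to either is uncertain, had too few reads for the test in cells and averaged 2.89 in DKO and 2.22 in KEAP1-KO cells, and 3.98 in DKO tumors against 2.0 in all other tumors. Mx1 and Mx2, interferon-induced GTPase genes further along, averaged 5.57 and 4.17 in DKO and 3.19 and 2.53 in KEAP1-KO tumors, but their means stood at 2.0 to 2.54 in all groups of cells.

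Of the 10 nearest listed genes of Tmprss11b, 7 were tested in culture and 2 were higher in DKO than in KEAP1-KO cells, where 3.98% of all rows were called higher. These were Csn3, a milk casein gene (0.74, limma adjusted p = 0.0193), and Uba6, a ubiquitin-activating enzyme gene (0.61, 0.0297). Csn3 lay 44 and Uba6 9 annotated genes away, so neither was a direct neighbour. The direct neighbours Tmprss11f and Tmprss11e averaged 2.98 and 2.22 in DKO against 3.49 and 2.48 in KEAP1-KO cells, opposite in order to Tmprss11b. No test of either is read, since Tmprss11e had too few reads and Tmprss11f passed the filter only through KEAP1-KO cells. Tmprss11g, next beyond Tmprss11f, averaged 3.06 against 2.74, the same order as Tmprss11b. So did Tmprss11f in tumors of Experiment B, at 4.10 in DKO against 2.75 in KEAP1-KO.

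**Figure D5:**
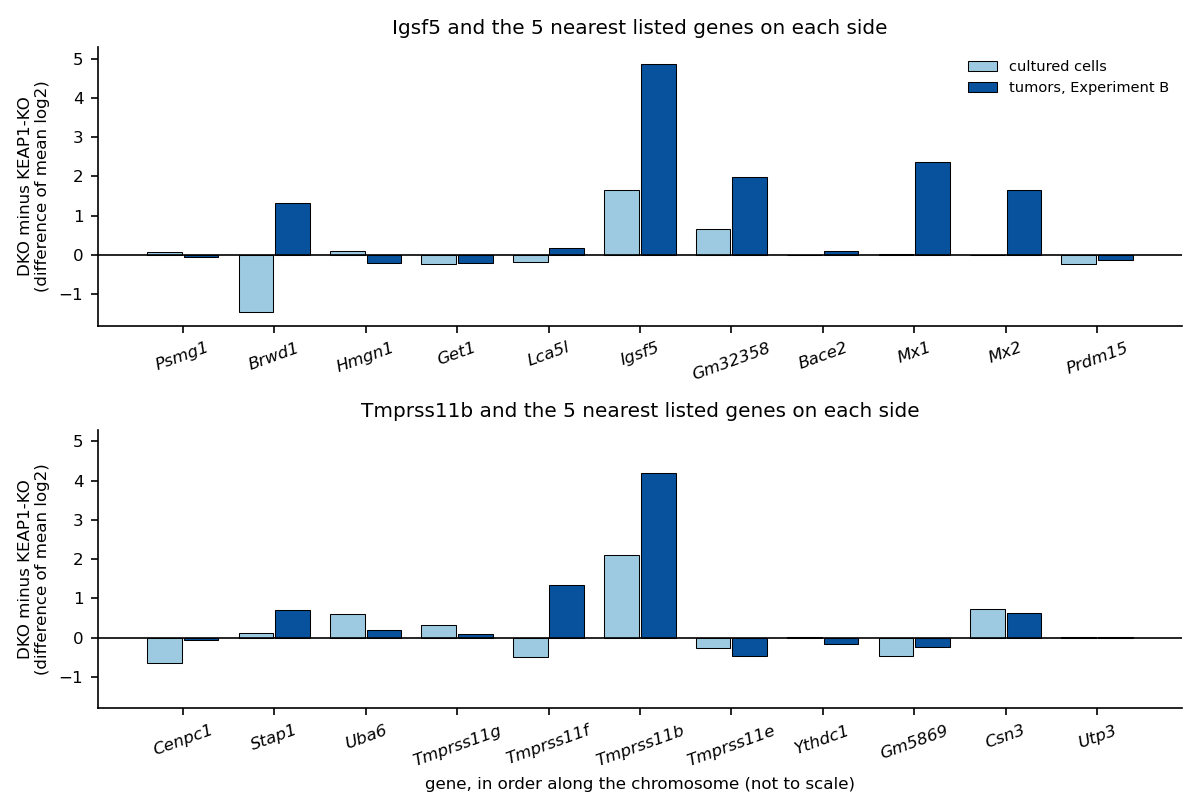
Difference of the mean log2 values between DKO and KEAP1-KO in cultured cells (light bars) and in tumors of Experiment B (dark bars) for Igsf5 (top), Tmprss11b (bottom) and the 5 nearest listed genes on each side, in chromosome order and not to scale. The bars of Igsf5 (1.67 and 4.86) and Tmprss11b (2.11 and 4.19) exceed those of every neighbour shown on this scale, on which changes of rarely read genes are understated.

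The 186 bases shown upstream of Tmprss11b were searched on both strands for 4 motifs. CACCTG, the E-box of SNAI and ZEB repressors, occurred once, starting at position -85 from the annotated start, and occurs in windows of the same length in 13.5% of 32851 promoters. The antioxidant response element TGACNNNGC (6.95% of promoters), the AP-1 motif TGANTCA (5.09%) and the grainyhead-like motif AACCNGTT (1.35%) were not found as these letters in this window.

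The rows whose pattern was most like that of each gene were named by Pearson's r over the 28 libraries, as a description. For Igsf5 these were Gm8041 (0.91), Gm32358 (0.90), Gm11578 (0.90), Ppic (0.89) and Gm5152 (0.89). Ppic, which encodes the prolyl isomerase cyclophilin C, averaged 11.03 in DKO cells and 10.93 in DKO tumors against 9.76 to 10.09 in all other groups. Gm8041 averaged 4.83 in DKO and 2.35 in KEAP1-KO cells.

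For Tmprss11b the most alike rows were Tom1 (0.94), Atp10a (0.93), Timp2 (0.92), Megf10 (0.92) and Hao1 (0.92). Hao1, which encodes a hydroxyacid oxidase of peroxisomes, averaged 5.5, 6.63 and 7.66 in WT, KEAP1-KO and DKO cells and 9.02 in DKO tumors. Timp2, which encodes an inhibitor of metalloproteases, averaged 12.56 in DKO cells and 13.35 in DKO tumors. The coefficient between Igsf5 and Tmprss11b was 0.76 over the same libraries, which differ in depth, host RNA and genotype. Of 16565 rows with a symbol that passed the filter on low values, 41 had a higher one with Igsf5 and 121 with Tmprss11b. These libraries include the tumors of Experiment B, whose contrast chose both genes. The coefficient between Igsf5 and Tmprss11b and these counts are therefore not independent of that choice and are no separate result.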

How the data were processed

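Per the labels and the study's methods, total RNA was depleted of ribosomal RNA, made into strand-specific libraries and quantified by the authors with Salmon against GENCODE mouse transcripts, given as version 35; positions here are from another release, and the genome build is not named in the sources used here. The deposited values are log2(normalized count + 4), 1 row per gene or transcript identifier (9122 and 34021 rows); both members are gene rows. The labels' extraction text speaks of livers, although the samples are labelled cells and tumors. Reads were recovered by dividing the normalized counts by each library's smallest step; 100% of low values came out whole within 0.05 of a read. No 2 libraries of a group agreed in more than 15.0% of rows. The members and gene lists were chosen with earlier results of these data known. Groups came from sample titles.

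A row was tested where 4 or more libraries of the fit had 5 or more normalized counts. Tests were run with limma 3.58.1 (eBayes with trend, R 4.3.3) over all cells, all tumors or all 28 libraries, with Benjamini-Hochberg adjustment over all rows and a threshold of 0.05. The fit of DKO against KEAP1-KO cells was tried on simulated data with the same dispersion setting for all rows. The fits over tumors and over all 28 libraries were not. Exact two-sided permutation tests covered single genes. Alternatives were a pseudocount of 1, no filter, a filter on a mean of 10, quantile normalization, median centring, only the groups compared, no trend, the replicate block and leaving out each library. The contrast of the Keap1 difference between tumors and cells was added after the data were seen. Named genes were both members, the rows next to them in the ranking, the 5 most alike rows, the 5 nearest listed genes on each side, and from each list the called rows with the 3 largest differences, together with other list members given as levels, which were chosen after their values were seen. Positions and sequences came from GENCODE vM21 and RefSeq promoters (1 of 2 members matched).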

Additional observations from a re-analysis of the deposited data

Results flagged for a closer look

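Among the 14 sets of 4 libraries, 2 held a value far from the others. Igsf5 in WT tumors was at 2.0 in 3 libraries and at 2.89, or 4 reads, in replicate 4, a gap that took up the whole range (ratio 1), as it must where the other libraries are tied at 0 reads. Tmprss11b in DKO cells was at 6.41 in replicate 2 against 6.05 to 6.09 in the other libraries, a gap of 0.904 of the range. The limit that such a gap had to exceed is one that chance passes in about 1 in 20 sets. The KEAP1-KO minus WT difference of Igsf5 was 0.60 in tumors and 2.29 in cells, and limma gave -1.69 for the first less the second. It passed the threshold in a contrast added after the data were seen, but the tumor values rest on 4 reads in WT and 16 in KEAP1-KO, and the call was lost under 4 of 8 other settings, so that it is not read as a tested difference.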

How the results depend on the processing

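Both members stayed higher in DKO than in KEAP1-KO cells under every alternative run, with limma adjusted p at most 0.00569 for Igsf5 and 0.00417 for Tmprss11b under other settings, and differences of 1.63 to 1.71 and 1.99 to 2.30 when single libraries were left out. The calls against WT cells also held, other than that of Tmprss11b in KEAP1-KO cells. That difference was 1.14 with only the groups compared (limma adjusted p = 0.0632), 1.14 in the exact permutation test (p = 0.0571), and 0.946 to 1.43 over single libraries left out (adjusted p up to 0.0679). In tumors of Experiment A, Tmprss11b was at 1.09 with only the groups compared (limma adjusted p = 0.0569), 1.09 with the replicate block (0.0602), 1.09 in the exact permutation test (p = 0.0571) and 0.882 to 1.38 over single libraries left out. The difference of Igsf5 between DKO and KEAP1-KO tumors moved to 5.97 with a pseudocount of 1. The Igsf5 difference between WT tumors and cells, which rests on too few reads and was not read as a result, ranged from -0.24 to 0.11 with single libraries left out and turned sign in 5 of 8 such fits.

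For the Keap1 difference in tumors less that in cells, Igsf5, whose tumor values rest on too few reads for a test, was at -2.43 with a pseudocount of 1 (limma adjusted p = 0.145), -1.52 with median centring (0.0561), -1.69 with only the groups compared (0.0696), -1.69 with the replicate block (0.0796) and -2.03 to -1.41 with single libraries left out. Tmprss11b, called under no setting, was at 0.13 with quantile normalization, 0.12 with median centring and -0.34 to 0.24 with single libraries left out. The cause of these changes was not tested. Libraries with the same replicate number correlated by -0.034 to 0.040, so the numbers were not read as pairs. For tumors this does not remove the sharing of mice within an experiment, since the numbers may not be mouse numbers. The replicate block changed no other call of a member. In DKO and WT cells each library correlated best with its own number. No paired analysis was possible for WT tumors against WT cells because the numbers belong to different material. Igsf5 did not pass the filter when only the groups compared were fitted in Experiment A or for WT tumors against cells, and gave no value there. The counts of all rows called stayed within 1.5 times. At 4.22e+06 to 7.52e+06 reads per library, no ratio of counts is given for a group with a library at 0 reads or with no more than 3 reads in all.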
